A study of Mus musculus with 36 samples.

Results

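The clustered histone genes of the mouse were examined for CpG methylation in liver. They were taken as every autosomal gene of the mm9 annotation whose symbol starts with Hist1h, Hist2h, Hist3h or Hist4h, which gave 70 of 34653 annotated autosomal genes. Each gene was read together with 500 bp on either side, and these regions held 4700 of the 18887127 autosomal CpGs of the deposited tables. The genes were 312 to 37383 bp long with a median of 530 bp. Because the genes lie close together, 1106 of these CpGs fell in the region of more than 1 gene, and 45 of the 70 genes shared CpGs with a neighbour, so the genes are not independent observations.

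Whole-genome bisulfite sequencing was performed on frozen liver from 24 mice. The parents were inbred B6 (C57BL/6N) and C3 (C3H/HeN) animals, and the offspring were B6C3F1 (B6 dam, C3 sire) and C3B6F1 (C3 dam, B6 sire), each with 3 males and 3 females. The labels name no treatment, parents were mated at 10 weeks, weaning was at week 16, and all animals were sacrificed at 20 weeks of age. The dams had borne and nursed litters, whereas the F1 daughters were virgins, so sex and reproductive history cannot be told apart between sires and dams. Replicates were separate animals, and the p-values below measure the spread between them. The paper describes 3 families per cross, each with a sire, a dam, a son and a daughter. Parents were therefore compared with their own offspring, and F1 brothers with sisters. The labels do not say whether the replicate number marks a family, and the main tests took no account of relatedness.

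Clustered histone genes encode the replication-dependent core histones H2A, H2B, H3 and H4 and the linker histone H1. They are transcribed mainly in S phase, most lack introns, and their messages end in a stem-loop in place of a poly(A) tail. Many H2A and H2B genes are arranged as divergent pairs around a shared promoter, and Hist1h1t, Hist1h2aa and Hist1h2ba are testis variants that are made in spermatogenic cells. In methylation data of bulk tissue, a value between fully unmethylated and fully methylated may come from a mixture of cells or from a mixture of alleles, and these cannot be told apart here.

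The sequences that carry the main contrast are printed from mm9 with each CpG in capitals. The first pair are spacers between divergent H2A and H2B genes, one methylated and one unmethylated in liver. The spacer between Hist1h2ba and Hist1h2aa is printed without its outer 50 bp at chr13:24026076-24026280 (plus strand), and that between Hist2h2ac and Hist2h2be at chr3:96024804-96025043 (plus strand).
Hist1h2ba and Hist1h2aa spacer: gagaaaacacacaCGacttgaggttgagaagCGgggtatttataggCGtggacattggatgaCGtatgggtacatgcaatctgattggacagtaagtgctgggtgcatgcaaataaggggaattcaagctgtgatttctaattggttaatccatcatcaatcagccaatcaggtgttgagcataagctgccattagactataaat
Hist2h2ac and Hist2h2be spacer: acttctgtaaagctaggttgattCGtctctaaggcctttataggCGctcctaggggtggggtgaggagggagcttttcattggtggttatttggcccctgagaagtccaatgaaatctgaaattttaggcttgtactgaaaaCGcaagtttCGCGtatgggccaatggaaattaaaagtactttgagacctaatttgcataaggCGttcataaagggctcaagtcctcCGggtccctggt
The Hist1h2ba/Hist1h2aa stretch held 4 CpGs in 205 bases and was methylated at 93.8% ± 2.29 (SD, n = 24). The Hist2h2ac/Hist2h2be stretch held 7 CpGs in 240 bases and was methylated at 0.312% ± 0.369. Both stretches contain the TATAAA element, the CCAAT box and, on 1 of the strands, the octamer ATTTGCAT.

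The second pair are the 250 bases before the start of 2 linker histone genes, the testis gene Hist1h1t at chr13:23787430-23787679 (plus strand) and the somatic gene Hist1h1e at chr13:23714372-23714621 (minus strand).
Hist1h1t upstream: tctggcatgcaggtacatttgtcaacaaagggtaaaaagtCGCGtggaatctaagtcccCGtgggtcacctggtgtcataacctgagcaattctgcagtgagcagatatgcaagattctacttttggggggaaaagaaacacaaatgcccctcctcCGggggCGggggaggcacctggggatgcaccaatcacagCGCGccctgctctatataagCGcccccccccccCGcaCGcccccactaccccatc
Hist1h1e upstream: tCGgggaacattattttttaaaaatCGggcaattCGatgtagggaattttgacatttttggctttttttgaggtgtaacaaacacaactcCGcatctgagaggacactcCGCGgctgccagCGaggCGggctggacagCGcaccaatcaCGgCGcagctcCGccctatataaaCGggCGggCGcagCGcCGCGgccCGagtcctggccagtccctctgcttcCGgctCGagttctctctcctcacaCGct
Hist1h1t had 10 CpGs in this window, methylated at 33.5% ± 6.38 (n = 24), and Hist1h1e had 22 CpGs, methylated at 0.271% ± 0.284. The last sequence is a stretch of the coding exon of Hist1h2bc, an H2B gene, at chr13:23776251-23776400 (plus strand), which is shown because the strains differed there.
Hist1h2bc coding: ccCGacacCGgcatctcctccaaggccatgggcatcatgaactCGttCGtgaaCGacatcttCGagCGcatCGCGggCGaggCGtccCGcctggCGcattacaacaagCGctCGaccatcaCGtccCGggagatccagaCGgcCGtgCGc
It held 20 CpGs, of which 19 were in the deposited tables, and ranged from 0% to 30.7% between animals.

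The deposited counts amounted to 19.4 to 32.8 reads per autosomal CpG per animal. Methylation over all autosomal CpGs was 76.0% ± 0.801 for B6 animals, 77.0% ± 0.353 for C3, 76.5% ± 0.383 for B6C3F1 and 76.8% ± 0.452 for C3B6F1 (n = 6 each). Within 250 bp of the start, 8 hepatocyte genes (Alb and Apoa1 among them) were at 14.7% to 26.9%, while 6 leukocyte genes were at 68.9% (Ptprc) to 91.6% (Cd3e). The testis genes Dazl, Ddx4 and Sycp3 were at 96.3%, 79.3% and 80.7%. Of the CG dinucleotides in the sequence of the histone gene regions 93.5% were in the tables, compared with 94.9% over all genes.

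Most clustered histone genes were unmethylated in liver. A gene was classed where 5 or more CpGs and, for each animal, 30 or more reads fell in its region, and 66 of the 70 genes qualified. Genes with a mean below 10% over the 24 animals were called unmethylated, genes at 50% or above methylated, and the rest partly methylated. By this rule 47 genes were unmethylated, 15 partly methylated and 4 methylated, and 21 genes were below 1%. The median region was at 3.01%, compared with 75.5% over the 32335 other genes, of which 2.65% were below 10% and 85.4% were at or above 50%. CpGs were dense in the histone genes, with a median of 4.57 per 100 bp compared with 1.21 in the other genes.

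The lowest 3 genes were Hist2h2ac at 0.296% ± 0.153, Hist2h2ab at 0.305% ± 0.151 and Hist1h1e at 0.307% ± 0.142 (n = 24 animals each). Hist2h2ac and Hist2h2ab are H2A genes that lie next to each other on chromosome 3. Hist2h2ac had 0 CpGs of its own among 103 and Hist2h2ab had 11 among 95, so their values rest largely on the same CpGs. Across animals Hist2h2ac ranged from 0% to 0.704% with a median of 0.313%, Hist2h2ab from 0.0497% to 0.647% with a median of 0.318%, and Hist1h1e from 0.0723% to 0.530% with a median of 0.277%. These ranges overlapped throughout, so the 3 genes cannot be ordered.

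**Figure D1:**
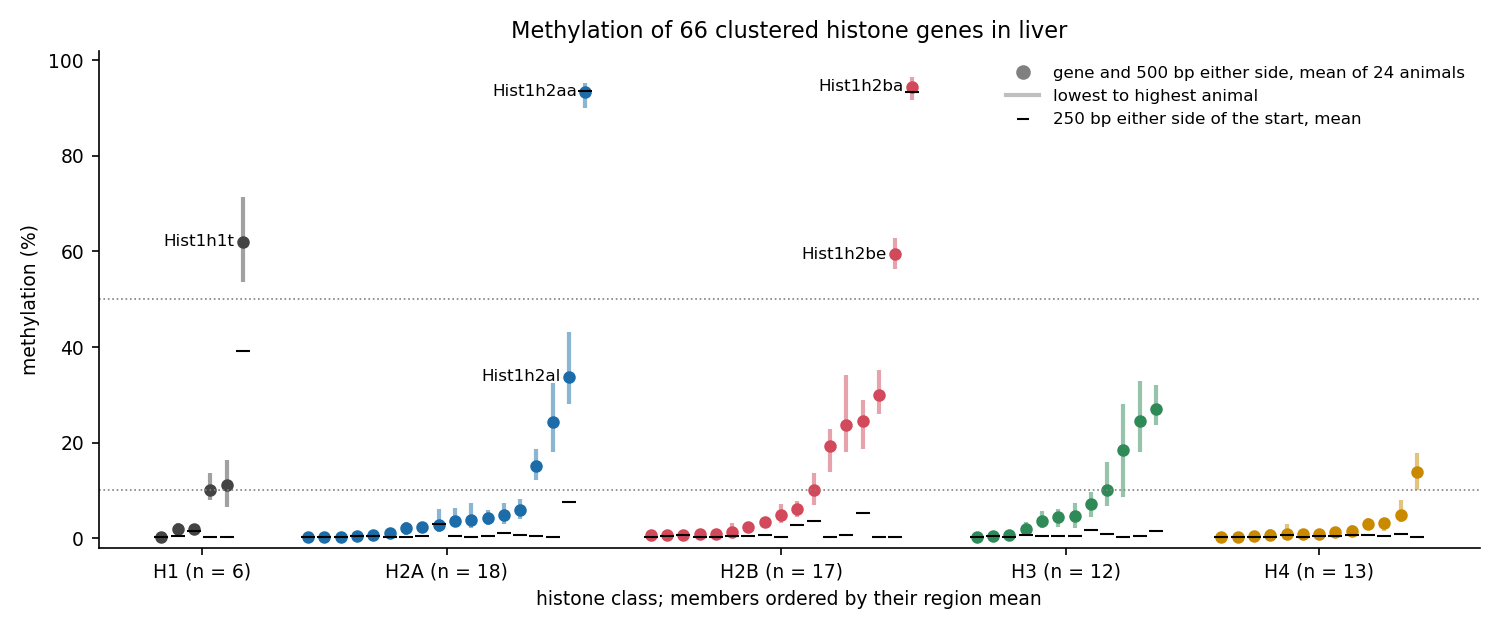
Methylation (%) of the 66 classed genes, ordered within histone class, with dots for the mean of 24 animals over gene and 500 bp on either side, bars from the lowest to the highest animal, and dashes for the 250 bp on either side of the start. Dotted lines mark 10% and 50%; Hist1h2aa and Hist1h2ba stand at the top with bars that do not reach below 90.0%, and the dash of nearly all other genes lies near 0.

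Methylation was lowest at the start of the genes and higher downstream. In the 500 bp before the gene the median was 0.582%, in the gene itself 0.745%, and in the 500 bp after it 16.3%. Within 250 bp of the start the median was 0.426% and 63 of 66 genes were below 10%. Of the other genes 41.8% were below 10% there. The 13512 other genes with such an unmethylated start nevertheless had a median of 70.8% in the gene and 88.2% downstream. When other genes were limited to short regions (at most 3000 bp) with similar CpG density and an unmethylated start, 807 remained, with medians of 3.33% in the gene, 34.4% downstream and 8.25% over the region. The 59 histone genes of at most 3000 bp had a median of 2.29%, and 79.7% of them were below 10%, compared with 56.1% of the 807 genes.

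Aligned on the start of the coding exon, the unmethylated and the partly methylated genes were alike immediately before the start, with medians of 0.275% and 0.284% in the last 100 bp. They parted downstream. The median first came near 50% in the bin that starts 1700 bp after the start for unmethylated genes (49.9%) and in the bin that starts at 900 bp for partly methylated genes (49.5%). From the start to the first CpG at or above 50%, the low stretch ran a median of 1408 bp upstream and 1262 bp downstream over 62 genes. Its total length was 948 to 11799 bp with a median of 2802 bp. Neighbouring genes that lie in the same stretch each count it, so these are medians over genes and not over separate stretches. The longest was that of Hist1h4n, which ran 10584 bp upstream across Hist1h2ap and Hist1h2br. Few reads fell on those copies (relative depth 0.0168 and 0.0179), so this length is uncertain.

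**Figure D2:**
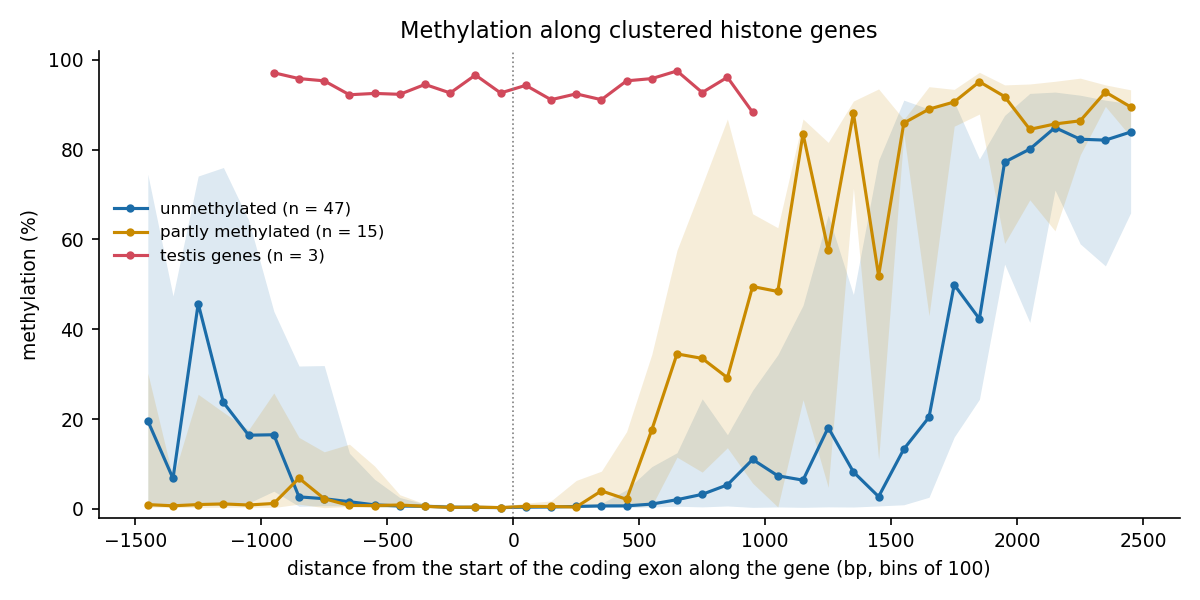
Median methylation (%) in bins of 100 bp along the gene, by distance (bp) from the start of the coding exon. Lines show 47 unmethylated genes, 15 partly methylated genes and 3 testis genes, with shading for the quartiles of the first 2 sets. These 2 sets, defined by the methylation of gene and flanks, share a floor near 0 at the start and separate after it. The median of the testis genes stays between 88.3% and 97.5% over the bins plotted for them, from -1000 to 999 bp. Not every testis gene has a CpG in each bin. Their lower quartile, not drawn, falls to 55.4% from -300 to -201 bp.

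Unmethylated genes outnumbered methylated genes in every histone class. Of 13 H4 genes 12 were unmethylated and 1 partly methylated, with a median of 0.968%, and H4 values ran from 0.308% (Hist1h4c) to 13.8% (Hist2h4). Of 18 classed H2A genes 14 were unmethylated, with a median of 3.18% and a range from 0.296% (Hist2h2ac) to 93.4% (Hist1h2aa). Of 17 classed H2B genes 10 were unmethylated, with a median of 4.96% and a range from 0.645% (Hist1h2bh) to 94.5% (Hist1h2ba). The classes differed more in their highest genes than in their lowest. Of 12 H3 genes 8 were unmethylated and none was methylated, with a median of 4.54% and a range from 0.331% (Hist1h3e) to 27.1% (Hist1h3d). Of 6 H1 genes 3 were unmethylated, with a median of 6.04% and a range from 0.307% (Hist1h1e) to 62.0% (Hist1h1t).

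The methylated genes were the 3 testis variants and Hist1h2be. Hist1h2ba, which encodes the testis H2B (chr13:24025637-24026025, minus strand), was at 94.5% ± 1.11 over 24 animals. Its lowest, median and highest animals were 91.7%, 94.8% and 95.5% for B6, 93.4%, 95.0% and 96.5% for C3, 94.1%, 94.9% and 96.2% for B6C3F1, and 92.9%, 93.4% and 95.2% for C3B6F1. The 4 groups overlapped. Hist1h2aa, which encodes the testis H2A (chr13:24026331-24026720, plus strand), was at 93.4% ± 1.32, with medians of 93.9%, 94.1%, 94.1% and 92.8% in the same order and a full range from 90.0% to 95.3%. This divergent pair was methylated from end to end, since upstream, gene and downstream zones were at 93.6%, 93.1% and 97.1% for Hist1h2ba and 93.5%, 92.9% and 95.0% for Hist1h2aa.

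Hist1h1t, the testis linker histone gene (chr13:23787680-23788588, plus strand), differed from this pair. Its region was at 62.0% ± 3.93 (n = 24), and the lowest, median and highest animals were 60.2%, 64.1% and 71.3% in B6 and 55.8%, 59.2% and 66.0% in C3. In the F1 animals they were 59.3%, 61.6% and 66.7% (B6C3F1) and 53.7%, 62.2% and 64.2% (C3B6F1), so the groups overlapped. Methylation dipped toward the start, to 39.1% ± 5.81 within 250 bp of it. In the printed upstream window the CpGs at -210, -208 and -191 bp from the start were at 20.5%, 19.3% and 14.6%, whereas the CpGs of Hist1h1t from -935 to -450 bp were at 88.5% to 98.1%. Hist1h1t lies at 23787680, between the partly methylated Hist1h2bc and the unmethylated Hist1h4c (0.308%).

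Hist1h2be, an H2B gene, passed 50% over its long annotated span but not at its annotated start or its coding exon. It is annotated over 37383 bp, and the region was at 59.4% ± 1.75 with animals from 56.4% to 62.9%. Its coding exon (23677448 to 23677825) was at 0.892%, and with 500 bp on either side at 0.538%. The annotated start, at 23712993 on the minus strand, was at 0.304% within 250 bp. That start lies far from the coding exon and near Hist1h1e (23713624 to 23714371), so its value does not describe the surroundings of the coding exon. Over the coding exon alone, 62 of 66 genes were below 10%. The exceptions were Hist1h2ba at 93.2%, Hist1h2aa at 92.9%, Hist1h1t at 65.7% and the H3 pseudogene Hist2h3c2 at 17.3%. Genes without a coding exon were read over their longest exon. For Hist2h3c2 this was the whole gene, so its value is not one of a coding exon.

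The 15 partly methylated genes had low starts (at most 7.55% within 250 bp) and higher downstream zones (34.3% to 96.6%). Hist1h2al, an H2A gene that stands alone on chromosome 13 (chr13:51298057-51298434), was the highest, at 33.8% ± 4.86 with animals from 28.1% to 43.2%. It was the exception in having a methylated upstream zone (96.7%) beside a low gene (8.87%) and a downstream zone at 51.0%. Hist2h2bb was at 29.9% ± 2.41, Hist1h3d at 27.1% ± 2.30 and Hist1h2bc at 24.6% ± 2.95. Hist2h3c2 was at 24.5% ± 3.11, Hist1h2ac at 24.3% ± 3.68 and Hist1h2bp at 23.7% ± 3.30. Neighbours in this order overlapped between animals. Hist2h2be, which encodes an H2B variant known from olfactory neurons, was at 19.3% ± 2.54, with 0.346% at its start and 88.9% downstream.

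The remaining partly methylated genes ran from Hist2h3c1 at 18.4% ± 4.44 down to Hist1h2bf at 10.0% ± 1.77. Hist1h3h (10.1%), Hist1h1d (10.1%) and Hist1h2bf lay just above the limit of 10%, and Hist1h3c at 7.13% was the highest gene below it. The widest spreads between animals were those of Hist1h2al, Hist2h3c1 and Hist1h1t (SD 4.86, 4.44 and 3.93 points). The genes annotated as pseudogenes did not stand apart, with Hist3h2bb-ps at 0.935%, Hist1h2aj at 5.95% and Hist2h3c2 as given above.

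Both large clusters on chromosome 13 held other genes with higher methylation than most of the histone genes. Histone genes within 1 Mb of each other formed 4 clusters, and Hist1h2al and Hist4h4 stood alone. On chromosome 13 the cluster at 21807632 to 22135545 held 24 histone genes, of which 18 were unmethylated and 4 not classed, with a median of 2.15%. Of the 13 other genes that start between them, 0 were unmethylated and 7 methylated, with a median of 65.9%. In the cluster at 23622919 to 24026720, 21 of 31 histone genes were unmethylated (median 3.10%), compared with 2 of 15 other genes (median 67.6%). Within 250 bp of the start the other genes had medians of 58.4% and 18.9% in these 2 clusters. Chromosome 3 held 10 histone genes (5 unmethylated, median 8.67%) and 1 other gene, at 31.9% over its region and 0.316% at its start. Chromosome 11 held 3 histone genes (2 unmethylated) and 1 other gene, at 49.8% and 0.388%, so neither of these other genes was methylated by the rule.

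Spacers of divergent pairs were unmethylated with 1 exception among those that could be read. There were 14 pairs of neighbouring histone genes that start in opposite directions less than 1000 bp apart, with spacers of 167 to 692 bp and a median of 228 bp. In 11 pairs the spacer held at least 30 reads in every animal, and in 10 of these it was below 10%, with a median of 0.278% over the 11 and a highest value of 0.958% among the 10 (Hist1h2bf/Hist1h2ad). The exception was Hist1h2ba/Hist1h2aa, whose full spacer of 305 bp was at 93.5% ± 1.80 (n = 24).

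Over gene and flanks, histone genes outside these clusters were more varied. Of 15 replication-independent histone genes 4 were below 10%, namely H1f0 (1.38%), a linker histone of differentiated cells, H2afx (1.46%), which acts in the DNA damage response, H1fx (3.64%) and H2afz (5.17%). The germ-cell linker histone genes H1foo, H1fnt and Hils1 were at 90.5%, 87.1% and 75.9%. All 7 genes for factors of histone gene expression, from the U7 component Lsm10 (50.2%) to Casp8ap2 (75.8%) and including Npat (67.1%) and Slbp (58.8%), were above 50% over gene and flanks. Values near the start are not given for either list. Other genes with a start below 10% still had a median of 66.3% over the region, so these values do not describe the starts.

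Promoter letters differed by histone class. In the 300 bp around the start (250 before and 50 after, both strands) matches that may overlap each other were counted, and CCAAT was present in 59 of 70 genes (84.3%), compared with 37.9% of 34578 other genes, but in 4 of 13 H4 genes (30.8%). TATAAA was present in 38 genes (54.3%, other genes 15.8%). The octamer ATTTGCAT was present in 16 genes (22.9%, other genes 2.23%), of which 7 were H2A genes, 9 were H2B genes and 0 belonged to the other classes. Spacers of divergent pairs had a median of 228 bp, so 1 match can count for both genes of a pair. The genes with a match are therefore not separate promoters. CTTTTCAG, part of the stem-loop at the end of histone messages, was searched on the strand of the gene within 150 bp of the annotated end and was present in 38 genes (54.3%, other genes 0.908%) and in 11 of 13 H4 genes. The methylated testis pair carried the same promoter letters as the unmethylated pair printed above.

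Read depth was lower in genes with repeated sequence. Relative depth, the reads per CpG of a region over those of all autosomal CpGs of the animal, had a median of 0.760 over the 70 histone genes and 0.958 over 32639 other genes. Below 0.5 were 9 histone genes (12.9%) and 2.93% of the other genes. The share of 100-base stretches of a region that occur elsewhere in mm9 after bisulfite conversion of the sequence was at least 40% in 13 genes, whose relative depth ran from 0.0168 to 0.743 with a median of 0.345. The other 57 genes ran from 0.557 to 1.21 with a median of 0.788. The lowest were Hist1h2ap (0.0168), Hist1h2br (0.0179) and Hist1h2ao (0.0670), all with 100% repeated stretches, and the highest were Hist4h4 (1.21), Hist1h2bh (1.10) and Hist1h1d (1.09).

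**Figure D3:**
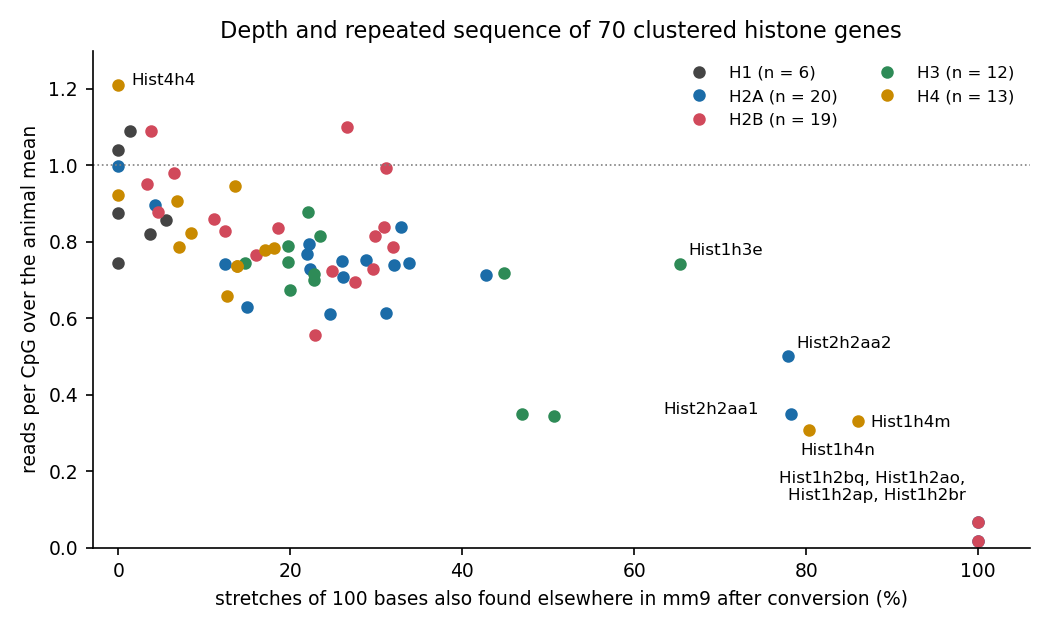
Relative depth of the 70 genes (reads per CpG over the animal mean, mean of 24 animals) against the share of 100-base stretches also found elsewhere in mm9 after conversion (%), coloured by histone class. The 4 genes at 100% lie below 0.07, and each gene below 40% lies above 0.5.

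The 4 genes that could not be classed were these near-identical copies. With the reads of all animals pooled, Hist1h2bq had 60 methylated of 3094 reads (1.94%, 95% exact Clopper-Pearson interval 1.48% to 2.49%) and Hist1h2ao had 24 of 3256 (0.737%, 0.473% to 1.09%). Hist1h2ap had 6 of 802 (0.748%, 0.275% to 1.62%) and Hist1h2br had 5 of 758 (0.660%, 0.215% to 1.53%). All intervals lay below 10% and cover counting error only, and no statement can be made for single animals with as few as 0 reads.

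Relative depth was also compared between B6 and C3 (limma over all genes). It differed in 6 of 70 histone genes (8.57%), and 32% of the 32578 genes tested were called. The median absolute difference on the log2 scale was 0.11 over the histone genes and 0.08 over all genes. Their depth therefore cannot be said to differ less than that of other genes. Depth was higher in B6 (18.3% of all genes) for Hist1h4c (0.56 on the log2 scale), Hist1h4n (0.44), Hist3h2bb-ps (0.25) and Hist3h2a (0.24). It was higher in C3 (13.7% of all genes) for Hist1h4m (-0.69, B6 minus C3) and Hist4h4 (-0.51).

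The strains were compared to ask whether the histone genes take part in the methylation differences between B6 and C3. With the reads of a region summed per animal, limma over 32401 genes called 15 of 66 histone genes (22.7%), and 21.7% of all genes tested were called. Higher in B6 were 4 genes (4.14% of all genes) and higher in C3 were 11 (17.6% of all genes). The share of histone genes called was therefore near that of all genes. Over whole regions the differences were small in points, with a median absolute difference of 0.541 points over the 66 genes and 1.27 points over all genes. On the log2 scale of the test the order was reversed, with medians of 0.3 and 0.12. The histone genes therefore cannot be said to differ less than other genes. Parts of a region differed more. Hist2h3c1 differed by -19 points in the gene alone (limma adjusted p = 1.31e-06) and -10.7 points downstream (adjusted p = 0.0033). Over its region it was not called (-4.67 points, adjusted p = 0.156), and 46.9% of its stretches were repeated (relative depth 0.349). Hist1h1c differed by 14.7 points downstream (adjusted p = 3.25e-07), where few C3 reads fell, as described below. The median difference, B6 minus C3, was -0.428 points over the 66 genes and -0.883 points over all genes. Over the 66 genes, called or not, 8 (12.1%) had groups that did not overlap, compared with 9.01% of all genes. Of the 15 called genes 6 did so, and in all 15 the mean of the 12 F1 animals lay between the parental means. A call requires parental means that lie apart, so this F1 position is not separate support. Its share over all genes is not given. Differences between B6 and C3 sequence (single-nucleotide variants) were listed in the region of 10 of the 15 genes and of 20 of the 51 others.

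The smallest adjusted p-values were those of Hist1h1a, Hist1h1c, Hist1h3b, Hist1h4d and Hist1h4a. Hist1h1a, a linker histone gene, had lowest, median and highest animals of 12.5%, 14.6% and 16.3% in B6 and 6.64%, 7.43% and 8.94% in C3. The groups did not overlap, and the difference was 6.93 points (limma adjusted p = 3.92e-05). Hist1h1c, another linker histone gene, had 2.06%, 2.85% and 3.16% in B6 and 0.955%, 1.28% and 1.59% in C3, again without overlap (1.44 points, adjusted p = 0.00044).

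The other 3 were higher in C3. Hist1h3b had animals of 2.14%, 3.55% and 4.00% in B6 and 3.81%, 6.35% and 7.29% in C3 (-2.72 points, adjusted p = 0.000787), with an overlap of the groups. Hist1h4d had 0.328%, 0.584% and 0.670% in B6 and 1.04%, 1.24% and 1.45% in C3, with no overlap (-0.687 points, adjusted p = 0.00136). Hist1h4a had 1.52%, 2.66% and 2.98% in B6 and 2.99%, 4.08% and 4.17% in C3, where the groups nearly touched (-1.41 points, adjusted p = 0.00533).

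Read depth at methylated CpGs moved with the differences at Hist1h1a and Hist1h1c. From 650 bp after the start of Hist1h1a, 10 CpGs had 17.3 reads each in B6 and 5.10 in C3, with methylation of 65.2% and 66.0%. Before that point, 45 CpGs had 26.6 and 24.5 reads and were at 5.10% and 4.83%. A sum over reads therefore gave the methylated end of Hist1h1a less weight in C3. At Hist1h1c, 6 CpGs from 1800 bp after the start had 27.7 reads in B6 and 2.75 in C3, with mean methylation of 34.1% and 13.7%. The C3 mean rests on few reads, since its CpGs from 1866 to 2032 bp had 0.167 to 1.17 reads each. It therefore cannot show whether methylation differed there. The CpG at 1806 bp, with 40.2 reads in B6 and 13.0 in C3, was at 38.7% and 20.0%. Both cut positions, 650 and 1800 bp, were chosen after the values were seen.

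The comparison was repeated with each CpG given the same weight in all animals, over CpGs with at least 5 reads in every animal (added after seeing the data). This also left out 8 of the 10 CpGs of Hist1h1a and 5 of the 6 of Hist1h1c just described, so a change of weights and the loss of these CpGs cannot be told apart. Hist1h1a was then at 7.73% ± 0.516 in B6 and 7.67% ± 0.587 in C3 (adjusted p = 0.919, limma), and Hist1h1c at 1.40% ± 0.236 and 1.48% ± 0.190 (adjusted p = 0.62). With this weighting 29 of 66 genes (43.9%) were called, and 44.2% of all genes. The 4 genes higher in B6 compared with 5.49% of all genes and the 25 higher in C3 with 38.7%. Both fits called 12 genes, the fit of summed reads alone 3 (Hist1h1a, Hist1h1c and Hist1h3g), and the weighted fit alone 17. In 26 of the 29 genes the F1 mean lay between the parental means, with the limit given above.

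Among the genes called with equal weights, Hist1h3c had animals of 5.29%, 6.00% and 7.06% (lowest, median, highest) in B6 and 8.21%, 9.28% and 10.4% in C3 (-3.27 points, limma adjusted p = 7.37e-07). Hist2h3c2 had 28.8%, 31.0% and 33.5% in B6 and 34.6%, 36.5% and 38.6% in C3 (-5.38 points, adjusted p = 1.47e-06). Hist2h2be had 17.9%, 18.5% and 19.5% in B6 and 21.3%, 22.8% and 23.8% in C3 (-4.12 points, adjusted p = 7.49e-06). None of these groups overlapped. Hist1h1t was the gene with the largest excess in B6, 65.8% ± 2.62 compared with 60.8% ± 2.59 (4.94 points, adjusted p = 0.0251), with overlapping groups. For Hist1h1t the difference with summed reads did not pass the threshold (adjusted p = 0.0657). With summed reads Hist2h3c2 differed in the other direction, by 1.3 points (adjusted p = 0.599). The sign at Hist2h3c2 therefore depended on how CpGs were filtered and weighted. Its share of repeated stretches was 50.7%, and its relative depth was 0.345. Hist2h2be kept its direction with summed reads but was not called (-3.57 points, adjusted p = 0.0537), whereas Hist1h3c was called (-2.15 points, adjusted p = 0.0308). The testis pair Hist1h2ba and Hist1h2aa was not called in either fit.

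**Figure D4:**
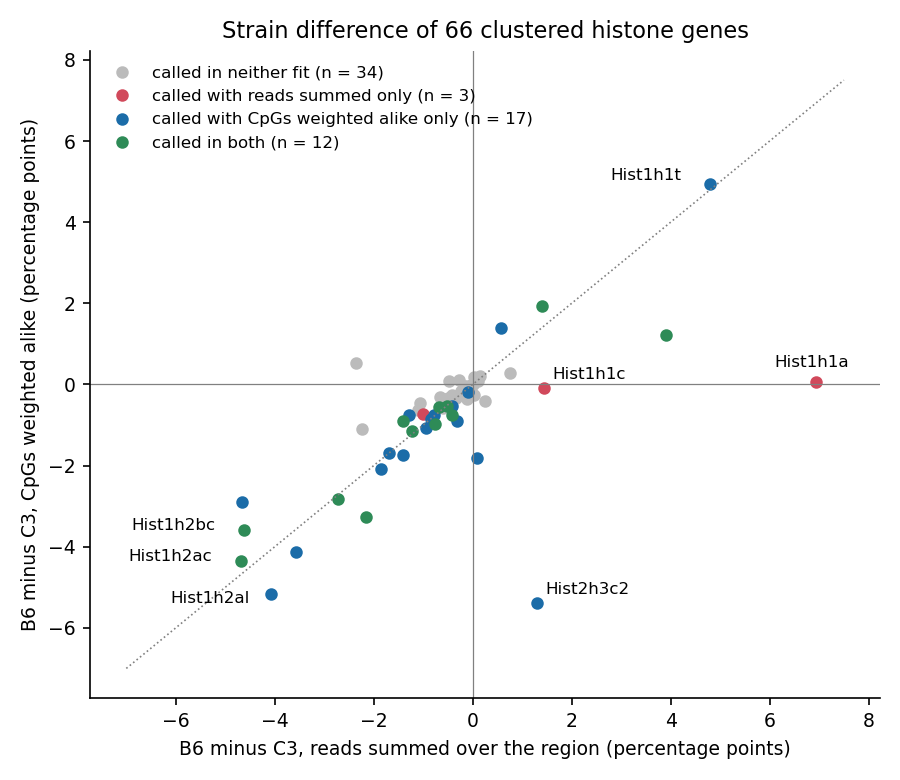
Difference B6 minus C3 (percentage points) of 66 genes with CpGs weighted alike (vertical) against reads summed over the region (horizontal), coloured by the fit that called the gene; the dotted line marks equal values. Hist1h1a lies at 6.93 points horizontally and near 0 vertically, and most called genes lie on the side of higher methylation in C3.

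Within the region of Hist1h2bc the strains stood apart over the coding exon, which was chosen after its values were seen. In B6 the 35 CpGs of the exon were at 0% (lowest animal), 0.171% (median) and 0.470% (highest), and in C3 at 11.8%, 13.8% and 23.7%. All 6 C3 animals lay above all 6 B6 animals, with means of 16.1% ± 4.69 and 0.204% ± 0.201. The F1 animals ran from 2.25% to 16.8%, above every B6 animal, and 3 of the 12 lay within the range of C3. Their means were 9.63% ± 4.81 in B6C3F1 and 7.29% ± 3.60 in C3B6F1 (n = 6 each).

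A test across all genes was available for the window from 500 bp before to 1000 bp after each start. With reads summed, Hist1h2bc differed there by -7.74 points (B6 minus C3, limma adjusted p = 1.63e-14). With CpGs weighted alike, it differed by -8.19 points (adjusted p = 1.36e-11), and 24 of 66 histone genes and 15.8% of all genes were called in that fit. The same CpGs lie upstream of the divergent neighbour Hist1h2ac, whose upstream zone differed by -9.14 points (adjusted p = 1.92e-14), so both values describe the same stretch. The 500 bp before Hist1h2bc itself did not pass the test, with a difference of -0.0495 points with reads summed (adjusted p = 0.837). With CpGs weighted alike its means were 0.196% ± 0.290 in B6 and 0.179% ± 0.232 in C3 (adjusted p = 0.812).

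CpGs with a C3 mean of at least 10% and a B6 mean below 2% were picked, which bounds the ranges given here. There were 34, among 36 CpGs from 28 to 386 bp after the start (chr13:23776096-23776454). They had means of 0% to 1.28% in B6, 10.3% to 27.9% in C3 and 4.44% to 11.7% in the F1 animals. The picked CpGs had 19.2 reads each in B6 and 20.2 in C3. The CpGs left out, at 249 and 344 bp, were at 0% in B6 and at 1.85% and 0% in C3. Relative depth of the exon was 0.649 ± 0.172 in B6 and 0.755 ± 0.0803 in C3 (n = 6 each, exact two-sided permutation p = 0.206). No B6 to C3 sequence variant was listed in the exon, and the nearest one was 499 bp after the start. Whether the methylated reads of C3 came from this copy or from a similar sequence elsewhere in the C3 genome was not tested.

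**Figure D5:**
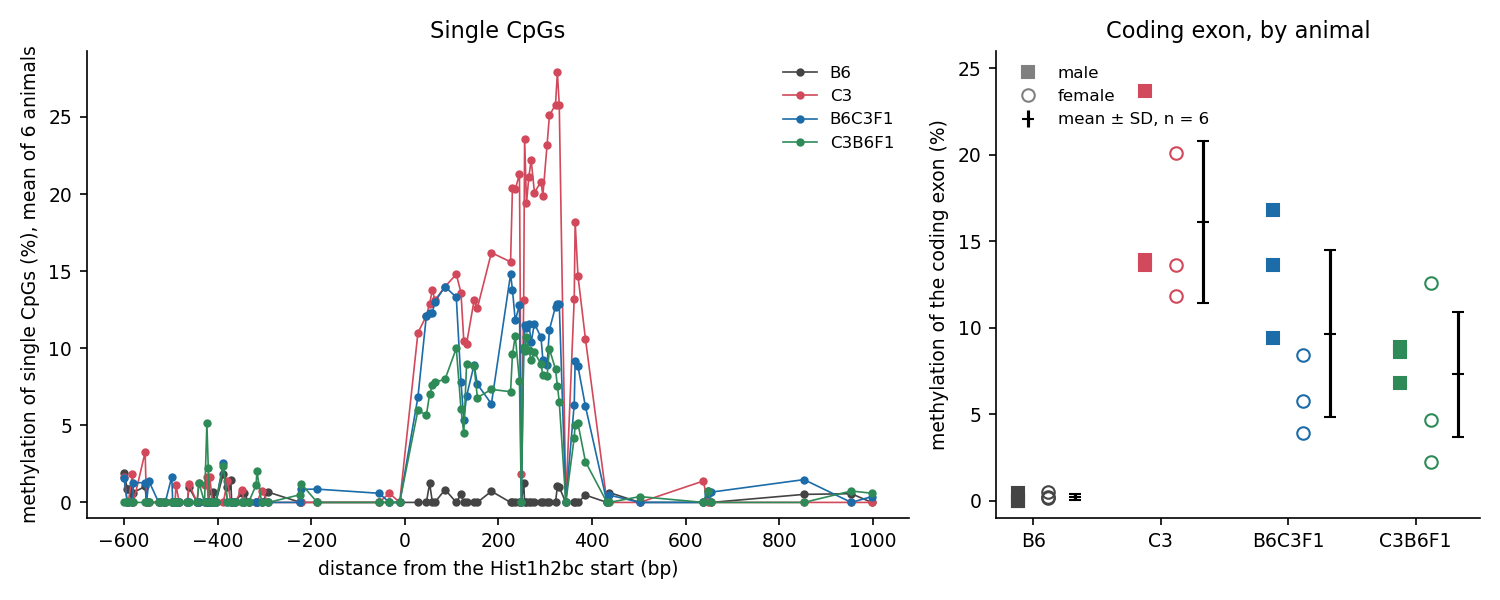
Left, methylation (%) of single CpGs by distance (bp) from the Hist1h2bc start, as means of 6 animals per group. Right, methylation (%) of the coding exon in each of 24 animals (filled squares males, open circles females) with mean ± SD; the B6 animals lie at or below 0.470%, the C3 animals at or above 11.8%, and the F1 animals between 2.25% and 16.8%.

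Sires and dams were compared to ask whether sex, with reproductive history, was reflected in these genes. Of 66 histone genes 2 were called (3.03%), and 7.98% of all genes were called. Both were higher in dams (1.12% of all genes) and form a divergent pair. Only 17 of 84 CpGs of the Hist1h2bf region and 18 of 88 of the Hist1h2ad region lay in no other histone gene region. The 2 calls are therefore not independent. In the gene alone, Hist1h2bf differed by -4.2 points (limma adjusted p = 0.00667) and Hist1h2ad by -0.308 points (adjusted p = 0.567). Hist1h2bf had lowest, median and highest animals of 6.91%, 8.34% and 11.6% in sires and 10.6%, 12.2% and 13.7% in dams, with a narrow overlap (-3.15 points, limma adjusted p = 0.0156, exact two-sided permutation p = 0.00649). Hist1h2ad had 4.02%, 4.62% and 6.03% in sires and 5.29%, 6.27% and 7.41% in dams (-1.63 points, adjusted p = 0.0347, exact permutation p = 0.00866). The call of Hist1h2ad was lost, with differences from -1.34 to -1.72 points and adjusted p-values from 0.0533 to 0.0964, when any 1 of 8 animals was left out (B6 males 1 and 3, B6 females 2 and 3, C3 males 1 and 2, C3 females 2 and 3). In the window from 500 bp before to 1000 bp after the start, neither gene was called with summed reads (-3.15 points, adjusted p = 0.0819, for Hist1h2bf and -1.57 points, adjusted p = 0.206, for Hist1h2ad), whereas both were called with CpGs weighted alike (-2.64 points, adjusted p = 0.0237, and -1.9 points, adjusted p = 0.0433). With CpGs weighted alike 4 genes were called, these with Hist1h2ab and Hist1h3b, all higher in dams, and 21% of all genes. The median difference of sires minus dams was 0.00568 points over the histone genes and 0.497 points over all genes. Median absolute differences were 0.333 and 0.905 points, but 0.17 and 0.08 on the log2 scale of the test. Here too, the histone genes cannot be said to differ less than other genes.

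No histone gene was called in the other 4 comparisons (limma with summed reads), where few genes of any kind were called. F1 sons against F1 daughters gave 0 of 66 (0.472% of all genes) and 5 at an unadjusted p below 0.05. Here the smallest p was at Hist1h2ad, with 2.94%, 3.97% and 4.68% in sons and 4.46%, 4.63% and 5.62% in daughters (adjusted p = 0.438). Dams against F1 daughters gave 0 (0.228% of all genes) and 5 unadjusted, led by the H2A gene Hist1h2ab with a median of 3.64% in dams and 2.26% in daughters (adjusted p = 0.156). Sires against F1 sons gave 0 (0.00617% of all genes) and 3 unadjusted, led by Hist1h3d with 28.5% and 25.6% (adjusted p = 0.71). B6C3F1 against C3B6F1 gave 0 (0.00926% of all genes) and 4 unadjusted, led by Hist2h3c2 with 23.0% and 26.2% (adjusted p = 0.324). In each of these leading genes the groups overlapped. Some genes reach an unadjusted p below 0.05 where nothing differs, and the share of all genes at that limit was not counted. The unadjusted counts are therefore not read as differences. The comparisons share animals and are not independent of each other.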

How the data were processed

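Liver DNA of 24 mice was measured by whole-genome bisulfite sequencing with unmethylated lambda DNA added. The authors filtered reads on base quality, aligned them to mm9 with lambda (Bismark 0.7.8 and Bowtie 0.12.8, with CASAVA 1.8.2 and Picard 1.110 in the submitters' processing notes), removed duplicates, clipped and trimmed reads and merged libraries per animal. For each CpG the authors deposited raw counts, methylated and unmethylated reads apart, strands combined and not normalized, for CpGs present in mm9 and in both strains. All 48 columns were used and 0 others. Total counts on autosomal CpGs were 365740739 to 619888157 per animal, and this depth sets the precision. A deposited list gave the bases at variants between B6 and C3. The FOXA1 samples were not analysed here.

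The genes, lists and tests were chosen with earlier results of these data known. Percent methylation is methylated over all reads of a region. Tests used limma 3.58.1 (R 4.3.3, trended and robust) on log2 ratios with a pseudocount of 1, over all autosomal genes with 5 CpGs and 30 reads in every animal, with 8 means (strain or cross by sex). The threshold was 0.05 for p adjusted after Benjamini and Hochberg, and single values were compared by exact permutation tests (scipy 1.17.1). The limma script was tested on simulated data. Named were the testis genes, the 12 highest and 3 lowest genes, the extremes of each histone class, of depth and of SD, the pseudogenes, and up to 5 called genes per comparison. The coding exon of Hist1h2bc, and genes named from the fit with equal weights, were added after their values were seen. Alternatives comprised other zones, weights, filters, scales, variances, a replicate block and leaving out each animal. Sequences and motifs were read from the mm9 genome, and all coordinates count from 1.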

Additional observations from a re-analysis of the deposited data

Results flagged for a closer look

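In groups of 6 animals of one strain or cross, 31 items were examined for an animal far from the other 5. The items were named genes and the coding exon of Hist1h2bc, which lies within 1 of these genes and was chosen after its values were seen. An animal was flagged by the gap to its neighbour as a share of the group's range (Dixon's limit at the 95% level). Such an animal was found in 14 of 124 groups (11.3%), where chance gives about 1 in 20 groups (5%). Genes that share CpGs, such as Hist1h2ba and Hist1h2aa, are not independent here. Hist2h2ac was highest in B6C3F1 male 2 at 0.556%, next to 0.381%, and Hist2h2be was lowest in C3B6F1 male 1 at 13.9%, next to 19.4%. Hist2h3b was highest in C3 female 2 at 4.55%, next to 2.95%, and Hist2h3b was highest in B6C3F1 male 2 at 4.80%, next to 3.36%. Hist3h2bb-ps was highest in B6 female 3 at 1.11%, next to 0.807%, and Hist1h2bp was highest in C3B6F1 male 3 at 34.1%, next to 24.8%. Hist1h3c was lowest in C3B6F1 male 1 at 5.04%, next to 7.33%, and Hist1h3b was lowest in B6 male 2 at 2.14%, next to 3.39%. Hist1h4a was lowest in C3 female 1 at 2.99%, next to 4.05%, and Hist1h1a was highest in B6C3F1 female 2 at 14.3%, next to 10.1%. Hist1h2ba was lowest in B6 male 1 at 91.7%, next to 94.5%, and Hist1h2aa was lowest in B6 male 1 at 90.0%, next to 93.4%. Hist1h2aa was lowest in C3 male 1 at 92.1%, next to 93.9%, and Hist1h2al was highest in B6 male 2 at 40.6%, next to 31.0%. The highest gaps as a share of the range were 0.894 (Hist1h4a) and 0.819 (Hist1h2al).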

How the results depend on the processing

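Among 416 values of single genes under the alternatives, 286 kept direction and call, 121 kept the direction and lost the call, and 9 changed sign. The sign changes, B6 minus C3 in points, were Hist1h1c in the start window (-0.354), in the 500 bp upstream (-1.37), near the start (-0.324), with CpGs weighted alike (-0.08) and so weighted in the start window (-0.556, adjusted p = 0.0174), Hist1h3g upstream (0.124), Hist2h3b in the gene alone (-0.21), and Hist2h2bb (-0.0292) and Hist1h1a (-0.00445) near the start. The cause was not tested.

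For B6 against C3 (15 genes) the count was 6 of 62 upstream (9.68%, all genes 7.99%), 8 of 39 downstream (20.5%, all genes 8.51%), 7 of 65 within 250 bp of the start (10.8%, all genes 6.01%), 0 of 66 at a minimum of 10 points (all genes 1.33%), 29 of 66 with CpGs weighted alike (43.9%, all genes 44.2%) and 24 of 66 so weighted in the start window (36.4%, all genes 15.8%). Zones had fewer genes with enough reads, and the minimum of 10 points was applied to whole regions. For sires against dams (2 genes) it was 0 in the start window, upstream, downstream, near the start and at a minimum of 10 points (0.182% to 1.26% of all genes). It was 1 of 64 in the gene alone (all genes 10.1%) and 4 of 66 with CpGs weighted alike (all genes 21.0%). For sires against F1 sons (0 genes) it was 1 in the start window (all genes 0.0912%), upstream (0.0364%), near the start (0.0780%) and weighted alike in the start window (0.0736%). F1 sons against F1 daughters gave 1 in the gene alone (all genes 0.562%) and 1 with CpGs weighted alike (all genes 3.98%). Dams against F1 daughters gave 1 in the gene alone (all genes 1.01%). Depth gave 3 in place of 6 in the start window, where the share of all genes was not counted. Methylated genes numbered 2 near the start, 2 with limits of 20% and 80% and 3 over the coding exon, in place of 4. They numbered 6 over CpGs in the region of 1 histone gene only (64 genes with a value). Over CpGs with at least 10 reads in every animal they also numbered 6. Unmethylated genes numbered 39 to 63 under all settings tried. The fits with equal weights and those near the start, and the coding exon for the classes, were chosen after seeing the data.

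Leaving out each animal in turn gave 10 to 17 genes for B6 against C3 (10 without B6 male 1 or C3 male 1), 1 to 3 for sires against dams, 4 to 6 for depth and 0 in the other 4 comparisons. The shares of all genes were not counted for these fits. The classes held 47 to 49 unmethylated and 4 methylated genes. With the replicate block 16 genes (24.2%, all genes 23.0%) were called for B6 against C3 and 3 (4.55%, all genes 8.22%) for sires against dams. The other 4 comparisons gave 0 (all genes 0.00926% to 0.485%), and depth gave 5. Deviations of same-numbered animals were weakly correlated (36 pairs, r from -0.157 to 0.279, 4 above 0.1). F1 sons with F1 daughters of the same cross had r from 0.026 to 0.279. Dams with daughters of their cross had r from 0.005 to 0.166, and sires with sons from -0.018 to 0.098. The block was not used in the main fit, so any resemblance within families was left in the spread.

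Depth limits the near-identical copies: 4 genes could not be classed, and reads that map to several copies are lost, so low depth does not show a missing copy. Regions sum CpGs of unequal depth. The lambda reads that would give the conversion rate were not analysed here, and values below 1% include any conversion failure.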
